A study of Mus musculus with 6 samples.

Results

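The report concerns 37 genes of the antioxidant system governed in large part by the transcription factor NRF2, and their expression in antigen presenting cells from mouse lung. The genes were chosen by name: NRF2 (Nfe2l2) and its repressor Keap1, the enzymes and transporter of glutathione synthesis, the thioredoxin system, the peroxiredoxins, dismutases and catalase, and the glutathione transferases. Of the 37 genes, 34 had a probe in the platform annotation, with 71 probes between them, out of 19057 genes and 45281 probes on the array. Each gene was followed through its brightest probe. All 34 measured genes lay within the brighter part of the array that was tested, 12382 genes in all. No probe was paired with Gsr, the glutathione reductase gene, or with the peroxiredoxin genes Prdx5 and Prdx6, so these 3 genes have no value.

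NRF2 is held in the cytoplasm by KEAP1 and degraded. Oxidants and electrophiles, which cigarette smoke contains in abundance, modify cysteines of KEAP1, and NRF2 then accumulates in the nucleus and binds antioxidant response elements in its target genes. Glutathione and thioredoxin are the main carriers of reducing power for the enzymes that remove peroxides and conjugate reactive compounds, and alveolar macrophages are among the first cells that inhaled smoke meets.

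The samples were 6 Illumina arrays with biotinylated cRNA, 2 for each of 3 groups of female C57BL/6 mice. Wild type mice breathed room air (WT air), wild type mice inhaled cigarette smoke over 4 months (WT smoke), and Spp1-/- mice, which lack osteopontin, a secreted matrix protein and cytokine, had the same smoke exposure (Spp1-/- smoke). No Spp1-/- mice in room air were sampled, so the smoke difference was measured only in wild type, and the comparison of Spp1-/- smoke with WT air changes genotype and exposure at once. No label used here gives the age of the mice, the way the cells were isolated or any pooling of animals. Nor is it said whether a group's arrays hold RNA of different mice, and the p-values then reflect the spread between samples alone, possibly a technical one. Values are log2 intensities, with a floor at 6.619, a top value of 16.014 and a probe median of 7.264. They compare 1 probe between samples and not different genes with each other. No probe was paired with Spp1, so the genotype could not be checked by its own gene.

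The preparations held RNA of other lung cells as well as of macrophages, and in different amounts in air and smoke. Of 12 macrophage markers with a probe, 2 rose after smoke in wild type and 0 fell, the dendritic and alveolar macrophage integrin gene Itgax by 0.84 and Pparg, a transcription factor of alveolar macrophages, by 0.67 (log2). Among the lung epithelium markers tested, 14 of 17 fell, with a median log2 difference of -1.85. For endothelium 10 of 12 fell (median -2.45) and for fibroblasts and smooth muscle 11 of 11 (median -1.95). The log2 of the summed intensity of the epithelial markers ran from 17.457 to 17.692 in WT air, from 15.682 to 16.063 in WT smoke and from 15.598 to 16.024 in Spp1-/- smoke. The same sums ran from 15.356 to 15.784, 13.398 to 13.595 and 13.103 to 13.435 for endothelium, and from 16.446 to 16.586, 14.273 to 14.520 and 14.358 to 14.717 for fibroblasts and smooth muscle. None of these lists was at the floor in any group, and of their genes Cnn1 alone lay at or below the probe median on every array. Among the other lists, 4 of 5 B cell, 4 of 8 T and NK cell and 3 of 4 erythroid markers fell, while 1 T and NK cell, 2 of 9 dendritic cell and 1 of 4 neutrophil markers rose. The part of these cells in the differences described next was not tested, and with bulk RNA fewer cells of a type and less RNA per cell cannot be told apart.

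**Figure D1:**
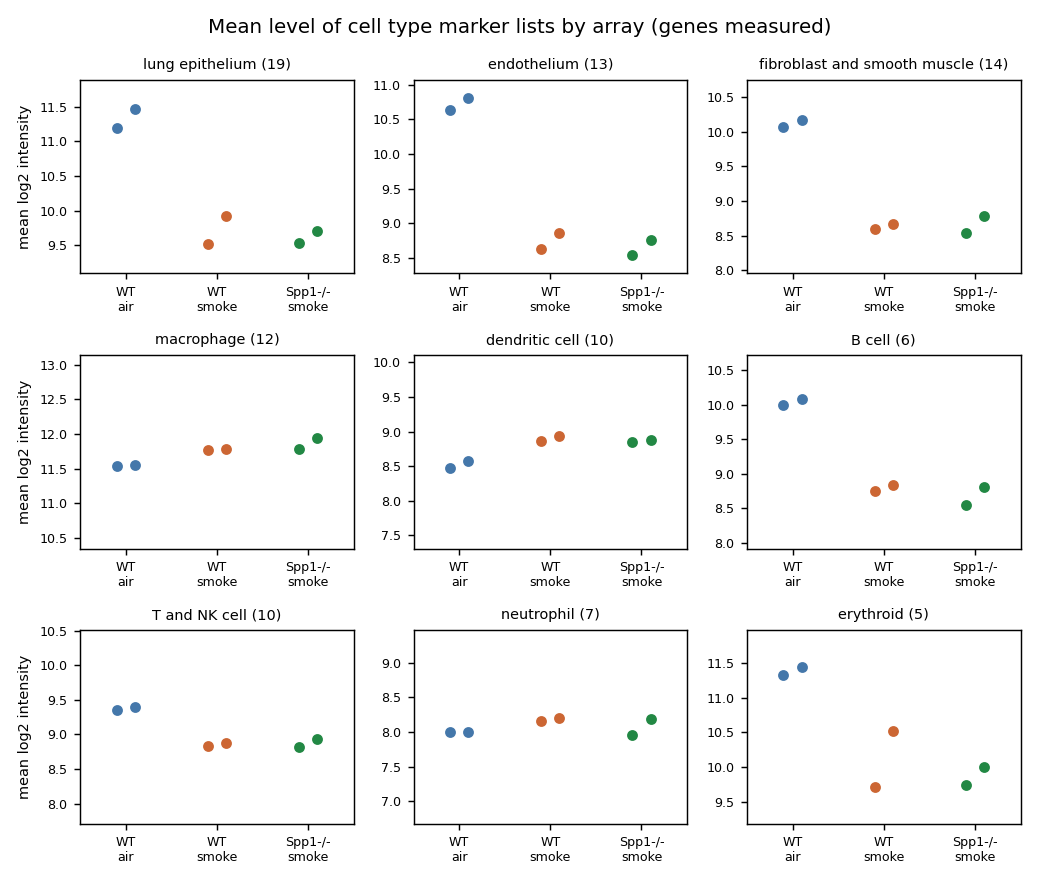
Mean log2 intensity of each list of cell type markers (vertical axis), 1 point per array, in WT air, WT smoke and Spp1-/- smoke, with the number of measured genes after each name. Within a group the lower array is drawn on the left. The epithelial, endothelial, fibroblast, B cell, T cell and erythroid points of WT air lie above those of both smoke groups, and the macrophage and dendritic cell points lie below them.

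Between WT smoke and WT air, antioxidant genes differed in both directions, as did genes over the whole array. In wild type, 5 of the 34 measured genes rose and 6 fell at a limma adjusted p under 0.05, and 23 did not pass. The cystine transporter gene Slc7a11 rose 8.12-fold, and the secreted glutathione peroxidase gene Gpx3 and the glutathione transferase gene Gsta3 fell by factors of 7.91 and 7.3. The other genes that rose were Blvrb, Prdx4, Gstm1 and Sod2, and the others that fell were Gstm2, Gstt1, Sod1 and Gsta4. Over all 12382 genes, 21.4% were called in this comparison, 11.1% higher and 10.3% lower, against 11 of 34 here. The median log2 difference of the 34 genes was 0.17, beside 0.04 over all genes. The median size of the difference, whatever its sign, was 0.42 here and 0.27 over all genes. At an unadjusted p under 0.05 there were 18 of 34, beside 34.8% of all genes. The arrays of the groups did not overlap for 17 genes that were higher in smoke (34.8% of all genes) and 10 that were lower (24.8%), beside 59.6% of all genes in either direction. With WT smoke replicate 1 or replicate 2 left out, fewer genes were called, both among the 34 and over all genes.

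**Figure D2:**
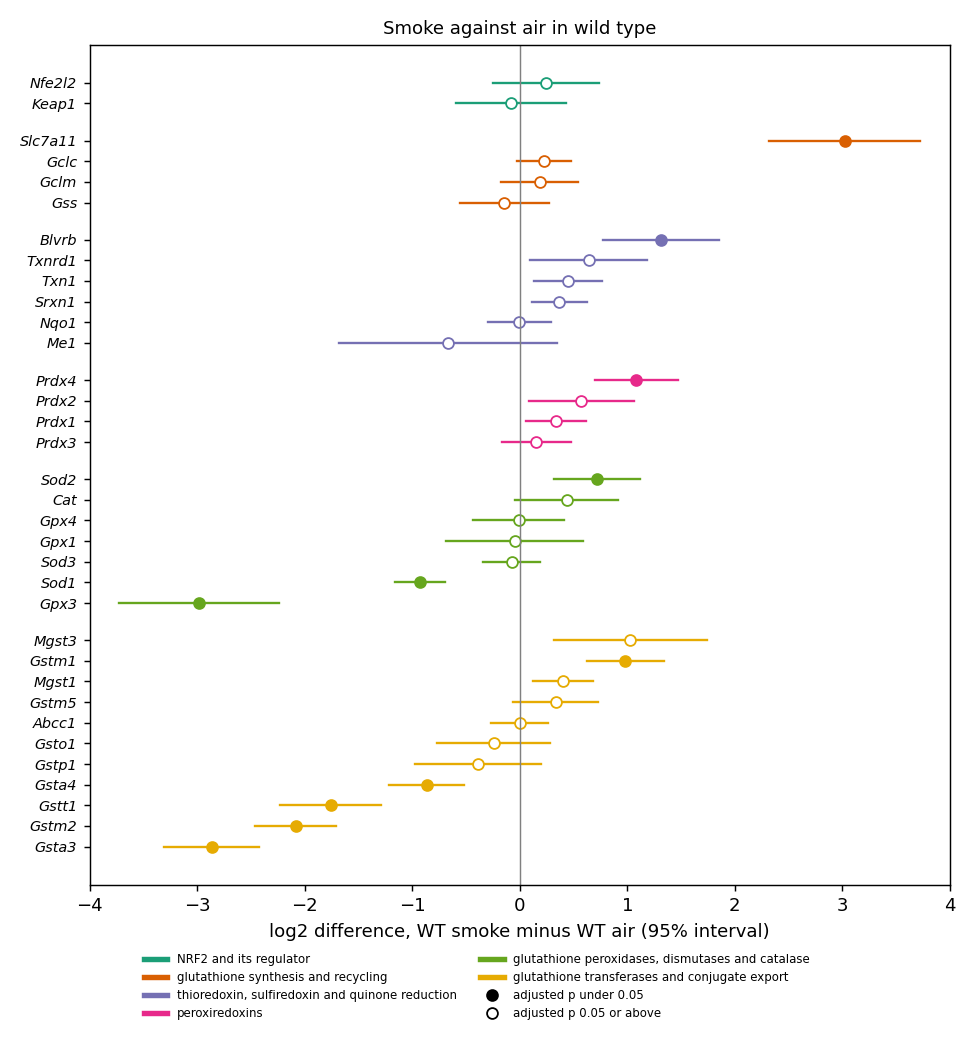
Log2 difference between WT smoke and WT air (horizontal axis) for the 34 measured antioxidant genes, ordered by role, with the 95% interval of the limma fit over all arrays. Filled points passed an adjusted p of 0.05: Slc7a11 lies farthest to the right at 3.02 and Gpx3 farthest to the left at -2.98.

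The regulators themselves showed no detectable difference. Nfe2l2, the gene of NRF2, read 7.25 and 7.06 in WT air, 7.18 and 7.61 in WT smoke and 7.59 and 7.28 in Spp1-/- smoke. These values straddle the median of all probes, where the floor compresses differences, and the WT air and WT smoke arrays overlap. The log2 difference in smoke was 0.24 ± 0.19 (SE), with a 95% interval from -0.25 to 0.74 and an adjusted p of 0.456. Keap1 was read well above the probe median, at 10.84 and 11.25 in WT air, 10.95 and 10.97 in WT smoke and 11.12 and 10.69 in Spp1-/- smoke. All 3 groups overlap, and the smoke difference was -0.08 ± 0.20 (adjusted p = 0.83). NRF2 is controlled chiefly through the stability of its protein, which an array does not measure.

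Among the genes of glutathione supply, Slc7a11 stood apart. It encodes xCT, the light chain of the antiporter that imports cystine, from which cells obtain the cysteine of glutathione, in exchange for glutamate. Its brightest probe read 9.43 and 8.58 in WT air, 12.03 and 12.03 in WT smoke, and 11.94 and 12.02 in Spp1-/- smoke. The 4 smoke arrays lie close together and far above both air arrays. In wild type the rise was 3.02 ± 0.28 on the log2 scale (SE, adjusted p = 0.00332, 95% interval 2.32 to 3.72), and the rise from WT air to Spp1-/- smoke was 2.97 ± 0.28 (adjusted p = 0.00346). The gene has 5 probes. The 2 next brightest rose too, by 1.67 ± 0.22 and 0.95 ± 0.10, with adjusted p over all 45281 probes of 0.0204 and 0.0125. The other two, with means of 7.38 and 7.21 near the probe median, differed by -0.05 and 0.16 and did not pass. Averaging all 5 probes gave a difference of 1.15, still called.

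The enzymes that build glutathione were not called. Glutamate-cysteine ligase, which catalyses the rate-limiting step, has a catalytic subunit (Gclc) and a modifier subunit (Gclm). Gclc had means of 7.42 ± 0.03 (SD, n = 2) in WT air, 7.64 ± 0.10 in WT smoke and 7.52 ± 0.03 in Spp1-/- smoke, again near the probe median. The means of Gclm were 9.91 ± 0.17, 10.10 ± 0.02 and 10.29 ± 0.18. The smoke difference in wild type was 0.22 for Gclc (95% interval -0.03 to 0.48, adjusted p = 0.188) and 0.19 for Gclm (-0.17 to 0.54, adjusted p = 0.432). Gss, the gene of glutathione synthetase, which adds glycine in the last step, differed by -0.14 (-0.56 to 0.27, adjusted p = 0.613).

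The RefSeq promoters (GRCm38.p6) of 31 of the 37 genes could be read, as windows of 300 bases. They were searched on both strands for TGACNNNGC, the core of the antioxidant response element. The motif was found in 10 of the 31 genes, beside 14% of 27025 genes with such a window and 16.1% of those tested on the array. It was present in 0 of the 5 genes that rose, 2 of 5 that fell and 8 of 20 that were not called. Many known elements of NRF2 targets lie farther upstream than these windows reach. A match is a description of letters and says nothing of binding. The next lines show the 250 bases before the start for the gene with the largest rise among the 34, for Prdx1, whose match GCTGAGTCA also holds the AP-1 type motif TGANTCA, and for 2 genes that fell, Sod1 and Gsta3. Capitals mark matches to TGACNNNGC or its reverse complement, at 133 bases before the start in Prdx1, 56 in Sod1 and 121 in Gsta3. In Slc7a11, which has no such match, they mark TGATGCAAA and its reverse complement, 66 and 48 bases before the start. TGATGCAAA is a form of the C/EBP-ATF response element of amino acid stress, and it was looked for after the sequence had been read. At least 1 copy was found in 0.271% of the 32851 promoter windows and at least 2 in 2 of them. Slc7a11 was the 1 antioxidant gene with a match, and as the search began from its sequence, these shares are no test of it.
Slc7a11, chr3:50443614-50443863, minus strand: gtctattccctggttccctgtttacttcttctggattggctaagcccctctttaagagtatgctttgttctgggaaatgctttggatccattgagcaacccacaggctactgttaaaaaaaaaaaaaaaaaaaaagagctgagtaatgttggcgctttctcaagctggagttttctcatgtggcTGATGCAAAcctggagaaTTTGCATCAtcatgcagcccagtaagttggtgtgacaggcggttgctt
Prdx1, chr4:116685349-116685598, plus strand: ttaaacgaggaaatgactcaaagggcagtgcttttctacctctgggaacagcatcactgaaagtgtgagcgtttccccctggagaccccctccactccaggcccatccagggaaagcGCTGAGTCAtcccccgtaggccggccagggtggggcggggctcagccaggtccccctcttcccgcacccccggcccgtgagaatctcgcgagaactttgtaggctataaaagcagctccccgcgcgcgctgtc
Sod1, chr16:90220512-90220761, plus strand: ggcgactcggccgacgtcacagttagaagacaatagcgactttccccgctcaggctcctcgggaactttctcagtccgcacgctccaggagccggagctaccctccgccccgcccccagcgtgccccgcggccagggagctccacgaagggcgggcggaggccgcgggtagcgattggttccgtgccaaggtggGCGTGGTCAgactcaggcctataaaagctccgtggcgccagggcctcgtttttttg
Gsta3, chr1:21240335-21240584, plus strand: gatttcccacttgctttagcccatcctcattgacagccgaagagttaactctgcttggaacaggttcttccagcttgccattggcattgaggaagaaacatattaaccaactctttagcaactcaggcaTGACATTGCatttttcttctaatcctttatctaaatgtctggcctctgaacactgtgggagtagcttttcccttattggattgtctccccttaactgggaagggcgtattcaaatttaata

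In the thioredoxin and quinone group, 1 of 6 genes rose in wild type smoke and 0 fell, beside 11.1% and 10.3% of all genes, so the count alone does not set the group apart. Blvrb, which encodes a flavin and biliverdin reductase, read 10.67 and 10.19 in WT air, 11.65 and 11.83 in WT smoke, and 11.75 and 11.39 in Spp1-/- smoke. Both smoke groups lie above air without overlap. The rise was 2.48-fold in wild type (log2 1.31 ± 0.21, adjusted p = 0.0146) and 2.2-fold from WT air to Spp1-/- smoke (log2 1.14 ± 0.21, adjusted p = 0.0207). In the separate fit of every probe by itself, its second probe gave 1.297 ± 0.087 in wild type (adjusted p over all probes 0.00462). The brightest probe gave 1.31 ± 0.21 in that fit. BLVRB is also abundant in red cells. Of the erythroid markers, Hbb-bt, Hba-a1 and Alas2 fell by 2.06, 2.32 and 1.46, Slc4a1 differed by -0.55 with overlapping arrays (adjusted p = 0.371), and Epb42 was too dim to be tested. The part of red cells in the Blvrb difference was not tested. Blvrb was no longer called in wild type without WT smoke replicate 1 or replicate 2, with differences of 1.399 and 1.22. Its call from WT air to Spp1-/- smoke was lost under 5 of 17 alternatives. Of these, leaving out either WT smoke array gave the same result as fitting only the 2 groups compared (adjusted p = 0.0511). The others left out an Spp1-/- array.

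Txn1, the thioredoxin gene, read 11.99 and 11.81 in WT air, 12.45 and 12.26 in WT smoke and 12.35 and 12.45 in Spp1-/- smoke. The 4 smoke arrays all lie above the air arrays by a small margin. The log2 difference was 0.45 ± 0.12 in wild type, which missed the threshold (adjusted p = 0.0597), and 0.50 ± 0.12 from WT air to Spp1-/- smoke, which passed it (adjusted p = 0.0442). The latter call was lost under 12 of 17 alternatives, which overlap. Leaving out either WT smoke array gave the same result as fitting only the 2 groups compared, and a difference of 0.50 cannot pass a 2-fold threshold. Txnrd1, whose reductase recycles thioredoxin, differed by 0.64 ± 0.21 in wild type (adjusted p = 0.0963), with means of 8.22 ± 0.29 (SD) in air and 8.86 ± 0.22 in smoke.

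Srxn1 encodes sulfiredoxin, which restores overoxidised peroxiredoxins, and its probes differed in size. The brightest read 10.56 and 10.47 in WT air, 10.89 and 10.88 in WT smoke and 10.64 and 10.77 in Spp1-/- smoke, a smoke difference of 0.37 ± 0.10 in wild type (adjusted p = 0.0601). A second probe had means of 7.38 ± 0.37 (SD, n = 2), 8.88 ± 0.20 and 8.91 ± 0.12. Its smoke difference was 1.505 ± 0.203 in wild type and 1.53 ± 0.20 between WT air and Spp1-/- smoke, with adjusted p over all probes of 0.0211 and 0.0193. The third probe, with a mean of 7.67, differed by 0.38 ± 0.12 in wild type (adjusted p over all probes 0.174). Between WT air and Spp1-/- smoke it differed by 0.68 ± 0.12 (adjusted p over all probes 0.0422), where the brightest differed by 0.19 and did not pass. With the mean of all 3 probes Srxn1 was called in both comparisons (adjusted p = 0.00597 and 0.0052). In wild type it was also called without the brightness filter (adjusted p = 0.0452). Which transcripts the probes cover was not tested.

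Nqo1, the quinone reductase gene that serves as a standard NRF2 target, was near the probe median in every group. Its values were 7.40 and 7.37 in WT air, 7.502 and 7.26 in WT smoke, and 7.435 and 7.43 in Spp1-/- smoke. The WT air and WT smoke arrays overlap, while both Spp1-/- smoke arrays lie slightly above WT air. A smoke difference in wild type was not detectable at this brightness (95% interval -0.30 to 0.29, adjusted p = 0.989). Me1, the gene of malic enzyme, a source of NADPH, differed strongly between the WT air arrays, at 9.54 and 8.43, against 8.24 and 8.38 in WT smoke. It did not pass (-0.67 ± 0.40, adjusted p = 0.316), and without WT air replicate 2 it did, at an adjusted p of 0.0325.

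**Figure D3:**
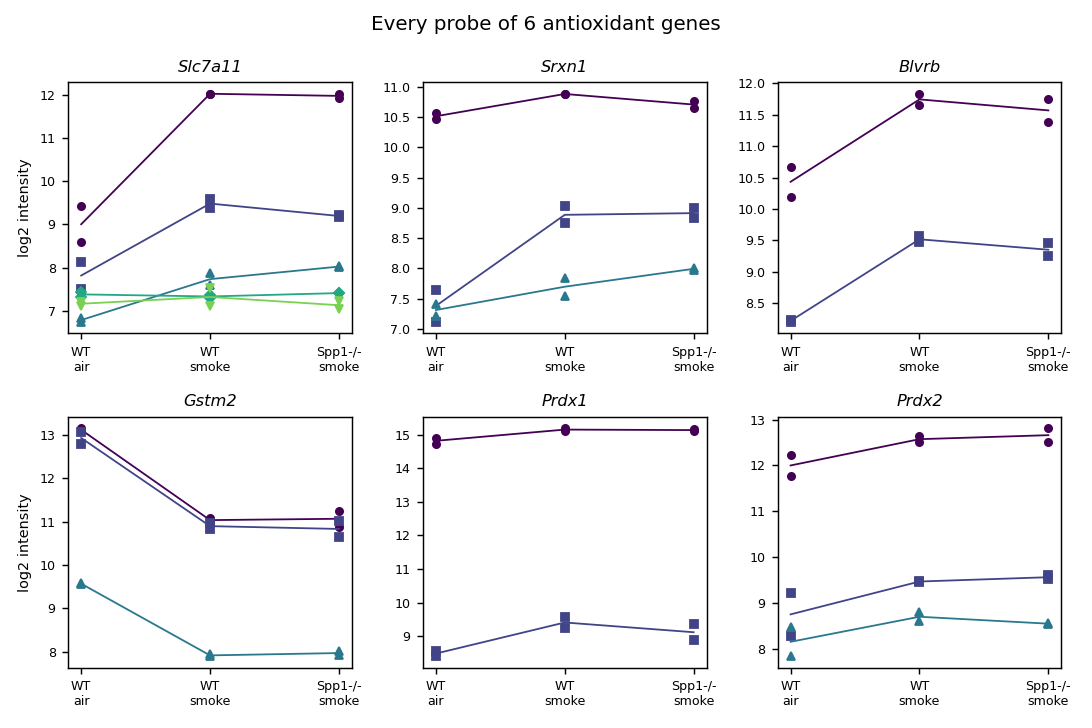
Log2 intensity of every probe of Slc7a11, Srxn1, Blvrb, Gstm2, Prdx1 and Prdx2 (vertical axis) in WT air, WT smoke and Spp1-/- smoke, with 1 symbol and line per probe, points for arrays and lines through group means. The 3 Gstm2 probes fell and both Blvrb probes rose, the second Srxn1 probe differed by 1.505 where the brightest differed by 0.37, and the dimmest Slc7a11 probes stayed near 7.

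Peroxiredoxins reduce peroxides through a reactive cysteine. Of the 4 measured, 1 rose in wild type smoke and 0 fell, beside 11.1% and 10.3% of all genes. Prdx4, the peroxiredoxin of the endoplasmic reticulum, read 11.27 and 11.64 in WT air, 12.62 and 12.46 in WT smoke and 12.48 and 12.45 in Spp1-/- smoke. Both smoke groups lie above the air arrays. The rise was 2.12-fold in wild type (log2 1.09 ± 0.15, adjusted p = 0.01003) and 2.02-fold from WT air to Spp1-/- smoke (log2 1.01 ± 0.15, adjusted p = 0.0118). Prdx4 lost its call in wild type without WT smoke replicate 1 or replicate 2, with differences of 1.006 and 1.165. Its dim second probe, with a mean of 7.06, differed by 0.08 (adjusted p over all probes 0.68), and averaging both gave 0.58, still called.

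Prdx1, a cytosolic enzyme, read 14.91 and 14.72 in WT air and 15.18 and 15.11 in WT smoke, close to the top of the scale. The groups did not overlap, but the difference of 0.33 ± 0.11 did not pass (adjusted p = 0.093). A dimmer Prdx1 probe gave 0.92 ± 0.20 (adjusted p over all probes 0.0726). Prdx2, which is abundant in red cells, differed by 0.57 ± 0.19 (adjusted p = 0.0973), and its 2 dimmer probes by 0.72 and 0.55. With the mean of all probes of a gene both Prdx1 and Prdx2 were called (adjusted p = 0.0215 and 0.0407). The mitochondrial Prdx3 differed by 0.15 ± 0.13 (adjusted p = 0.467).

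The superoxide dismutases went in opposite directions. Sod1, the cytosolic copper-zinc enzyme, read 13.29 and 13.33 in WT air, 12.39 and 12.38 in WT smoke and 12.41 and 12.37 in Spp1-/- smoke. The arrays of each group nearly coincide, and the smoke groups lie well below air. It fell 1.9-fold in wild type (log2 -0.93 ± 0.09, adjusted p = 0.00388) and was lower by the same factor in Spp1-/- smoke against WT air (log2 -0.92 ± 0.09, adjusted p = 0.00388). Its 2 dim probes, with means of 7.34 and 6.94, differed by 0.04 and -0.04 (adjusted p over all probes 0.81 and 0.819). Averaging all 3 gave -0.31, still called.

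Sod2 encodes the mitochondrial manganese enzyme, which inflammatory signals induce. Its values were 13.36 and 13.13 in WT air, 14.11 and 13.83 in WT smoke, and 14.05 and 13.82 in Spp1-/- smoke, with both smoke groups above air. The rise was 1.65-fold in wild type (log2 0.72 ± 0.16, adjusted p = 0.032) and 1.61-fold from WT air to Spp1-/- smoke (adjusted p = 0.0353). Of the called genes it held least well: 9 of 17 alternatives ended the call in wild type. The alternatives overlap, since leaving out either Spp1-/- array gave the same result as fitting only the 2 groups compared. A rise of 1.65-fold also cannot pass a 2-fold threshold. Weights per array gave a limma adjusted p of 0.0587, and the 2 groups alone 0.0669. The log2 difference was 0.58 without WT smoke replicate 1, 0.86 without WT smoke replicate 2 and 0.61 without WT air replicate 2. The extracellular enzyme Sod3 lay near the probe median, at means of 7.67 ± 0.01 (SD, n = 2), 7.59 ± 0.05 and 7.49 ± 0.12, and did not pass (adjusted p = 0.692).

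Gpx3, the gene of the secreted glutathione peroxidase found in plasma and extracellular fluid, fell about as far in wild type smoke as Gsta3, the gap between them being smaller than their standard errors. It read 12.32 and 12.99 in WT air, 9.55 and 9.79 in WT smoke and 10.07 and 9.51 in Spp1-/- smoke. Air and smoke are separated by more than 2 log2 units, and the smoke groups overlap each other. The log2 difference was -2.98 ± 0.29 in wild type (adjusted p = 0.0039, 95% interval -3.73 to -2.24) and -2.86 ± 0.29 in Spp1-/- smoke against WT air (adjusted p = 0.00432).

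The intracellular peroxidases were not called. Gpx1, the cytosolic enzyme, had means of 11.81 ± 0.07 (SD, n = 2) in WT air, 11.76 ± 0.20 in WT smoke and 11.63 ± 0.49 in Spp1-/- smoke. Gpx4, which reduces lipid peroxides in membranes and guards against ferroptosis, had 13.19 ± 0.03, 13.17 ± 0.24 and 12.96 ± 0.22. Smoke differences in wild type were -0.05 for Gpx1 (95% interval -0.69 to 0.59) and -0.01 for Gpx4 (-0.44 to 0.41). Cat, the catalase gene, differed by 0.44 ± 0.19 (adjusted p = 0.176), from 8.60 ± 0.11 to 9.04 ± 0.36.

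Glutathione transferases couple glutathione to reactive compounds. Of the 11 genes measured in this group, which includes the export pump gene Abcc1, 4 fell and 1 rose in wild type smoke, beside 10.3% and 11.1% of all genes. Gsta3, of the alpha class, read 11.99 and 12.00 in WT air, 8.95 and 9.31 in WT smoke and 8.93 and 8.62 in Spp1-/- smoke. Every smoke array lies far below both air arrays. The log2 difference was -2.87 ± 0.17 in wild type (adjusted p = 0.00174) and -3.22 ± 0.17 in Spp1-/- smoke against WT air (adjusted p = 0.00185). A dimmer probe, with a mean of 7.53, differed by -0.52 ± 0.20 (adjusted p over all probes 0.252), and averaging both gave -1.69, still called. Gsta4, an alpha class enzyme that acts on the lipid peroxidation product hydroxynonenal, read 8.46 and 8.37 in WT air, 7.55 and 7.54 in WT smoke, and 7.76 and 7.44 in Spp1-/- smoke. It fell 1.82-fold in wild type (log2 -0.87 ± 0.14, adjusted p = 0.0133). It lost this call without WT smoke replicate 1 or replicate 2, with differences of -0.87 and -0.86. Its smoke arrays lie near the probe median, where differences are compressed, and with the floor removed the difference was -1.31.

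Gstm2 and Gstm1, of the mu class, moved in opposite directions. Gstm2 read 13.15 and 13.09 in WT air, 11.10 and 10.98 in WT smoke and 11.25 and 10.89 in Spp1-/- smoke, a fall of 4.24-fold in wild type (log2 -2.08 ± 0.15, adjusted p = 0.00215). Its other probes gave -2.03 ± 0.16 and -1.65 ± 0.06, with adjusted p over all probes of 0.00623 and 0.00182. Gstm1 read 12.65 and 12.94 in WT air, 13.67 and 13.88 in WT smoke and 13.71 and 13.67 in Spp1-/- smoke. It rose 1.98-fold in wild type (log2 0.98 ± 0.14, adjusted p = 0.0107). It lost this call without WT smoke replicate 1 or replicate 2, with differences of 1.087 and 0.88. Its dim second probe, with a mean of 7.37, differed by -0.08 (adjusted p over all probes 0.626), and averaging both gave 0.45, still called. Gstm5 differed by 0.33 ± 0.16 (adjusted p = 0.207). Genes of the mu class resemble each other in sequence, and how far a probe also reads its neighbours was not tested. Gstt1, of the theta class, read 9.16 and 9.67 in WT air, 7.60 and 7.72 in WT smoke and 7.65 and 7.73 in Spp1-/- smoke, a fall of 3.38-fold in wild type on the deposited scale (log2 -1.76 ± 0.19, adjusted p = 0.00456). Its smoke arrays too lie near the probe median, and with the floor removed the log2 difference was -2.325.

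The microsomal transferases Mgst1 and Mgst3, which are membrane enzymes, had positive differences that did not pass. Mgst1 had means of 12.20 ± 0.12 (SD, n = 2) in WT air and 12.60 ± 0.07 in WT smoke (log2 difference 0.40 ± 0.11, adjusted p = 0.0587). Mgst3 had 10.44 ± 0.39 and 11.47 ± 0.32 (1.03 ± 0.28, adjusted p = 0.0575). With the mean of all probes of a gene, both were called (adjusted p = 0.0167 and 0.0413). Gstp1, the pi class gene, differed by -0.39 ± 0.23 (adjusted p = 0.313) and passed without WT air replicate 1 (adjusted p = 0.0208). Gsto1, of the omega class, differed by -0.24 ± 0.21 (adjusted p = 0.489). Abcc1, a pump that exports glutathione conjugates, lay at the probe median with means of 7.29 ± 0.01, 7.29 ± 0.07 and 7.28 ± 0.10.

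**Figure D4:**
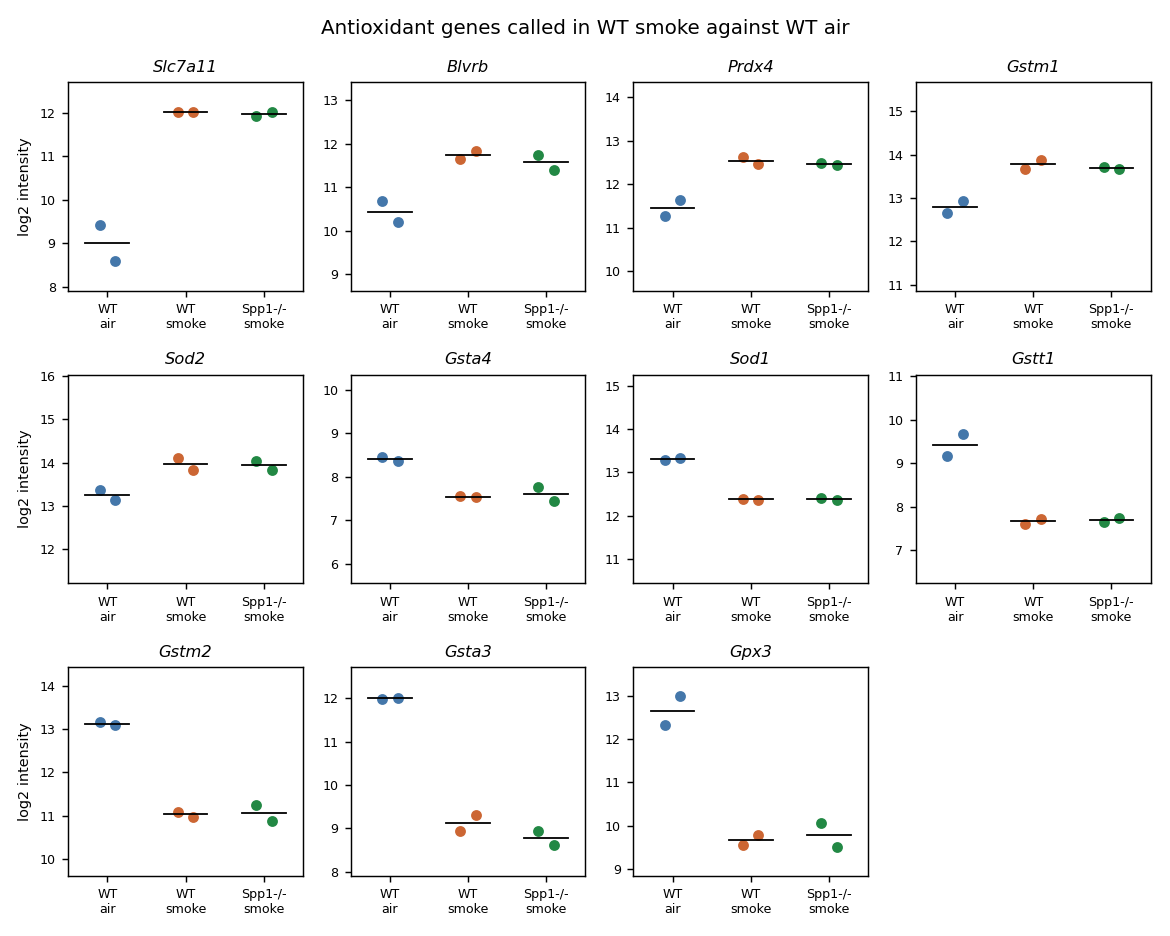
Log2 intensity (vertical axis, each panel spanning the same number of units) of the 11 antioxidant genes called between WT smoke and WT air, with points for the arrays and a line at each group mean. In every panel the WT smoke and Spp1-/- smoke points lie on the same side of the WT air points, ordered from Slc7a11 at 3.02 to Gpx3 at -2.98.

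Most epithelial, endothelial and mesenchymal markers were lower in the same comparison as the 6 antioxidant genes that fell. Among these markers the phosphate transporter gene Slc34a2, expressed in alveolar type II epithelium, fell from 12.30 ± 0.01 (SD, n = 2) to 9.27 ± 0.26. Emcn, the endothelial endomucin gene, fell from 11.57 ± 0.06 to 8.82 ± 0.04, and Bgn, the matrix proteoglycan biglycan, from 14.33 ± 0.12 to 11.57 ± 0.10. The 6 antioxidant genes that fell ran from -2.98 for Gpx3 to -0.87 for Gsta4. The epithelial list ran from -3.25 to 0.02, the endothelial list from -3.62 to -0.07 and the fibroblast and smooth muscle list from -3.31 to -0.55. Ranges this wide would hold falls of almost any size, so they do not tell where the falls arose. How much of these falls belongs to the other cells was not tested.

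Between the genotypes under smoke, no difference was called among the 34 genes. At a limma adjusted p under 0.05, 0 of 34 antioxidant genes and 0 of 12382 genes passed (0%). At an unadjusted p under 0.05 there were 0 of 34, beside 540 genes or 4.36% of all. No antioxidant gene passed under any of 16 other settings either, while between 6 and 9 genes of the whole array did under some of them. The median size of the difference was 0.07 for the antioxidant genes and 0.10 over all genes. The arrays of the groups did not overlap for 1 gene that was higher in Spp1-/- cells (18.3% of all genes) and 5 that were lower (19.5%), beside 37.8% of all genes in either direction.

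For genes called between WT smoke and WT air, the intervals give the genotype differences compatible with these arrays under the main fit. They hold for each gene by itself, without adjustment for the number of genes. That fit pools the spread over all groups, WT air included, so their width is not the scatter of the smoke arrays alone. For Slc7a11 the SD was 0.60 in WT air, 0.0013 in WT smoke and 0.059 in Spp1-/- smoke. For Gstm2 it was smallest in WT air, at 0.04, beside 0.08 in WT smoke and 0.26 in Spp1-/- smoke. The Spp1-/- to wild type ratio of Slc7a11 under smoke had a 95% interval from 0.595 to 1.57, of Gpx3 from 0.651 to 1.82 and of Gstm2 from 0.786 to 1.33. That of Sod1 was narrowest among the 34 genes, from 0.855 to 1.18. Gsta3 had the largest difference, -0.36 ± 0.17 (log2, 95% interval -0.80 to 0.09, unadjusted p = 0.0948), with 8.95 and 9.31 in wild type and 8.93 and 8.62 in Spp1-/- cells. The highest positive difference was that of Gclm, 0.19 ± 0.14 (-0.17 to 0.55), with 10.11 and 10.09 in wild type and 10.16 and 10.42 in Spp1-/- cells. Missing the threshold does not show that the genotypes are alike, and differences within these intervals were not detectable with 2 arrays a group.

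**Figure D5:**
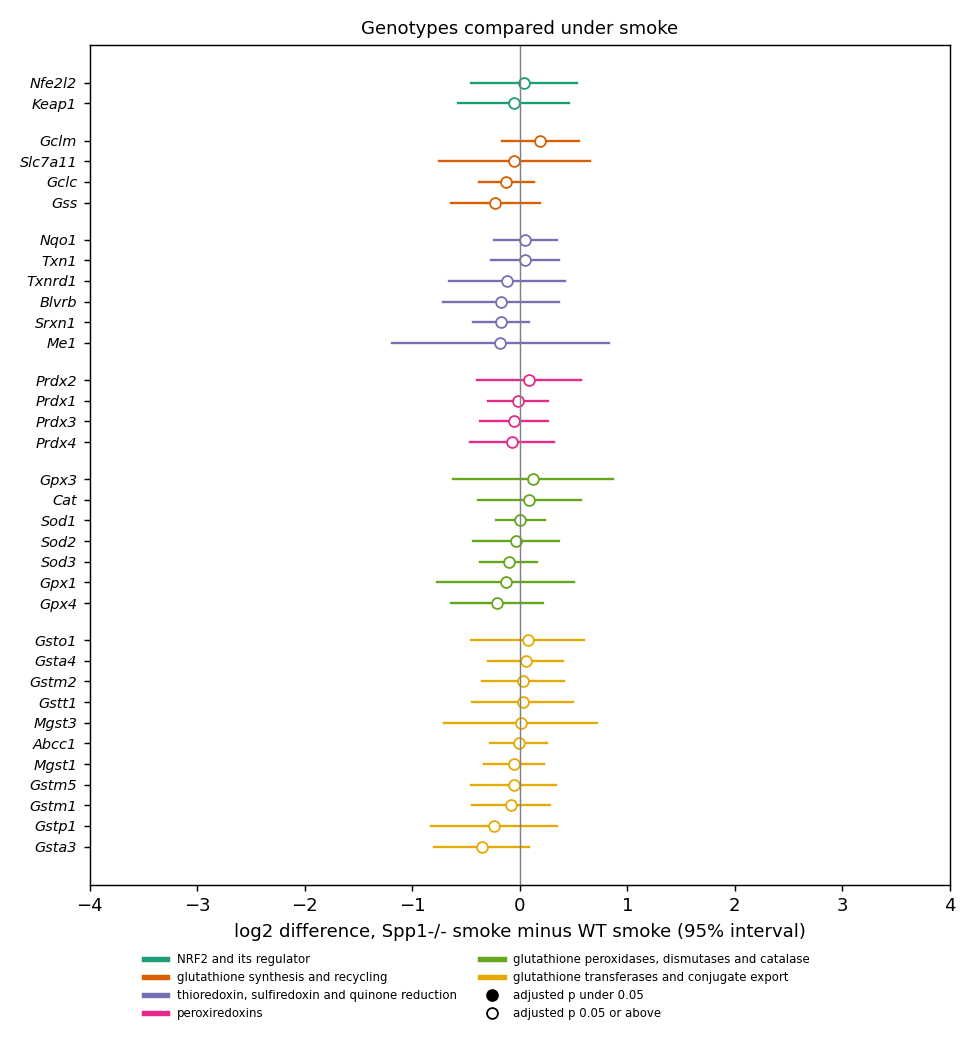
Log2 difference between Spp1-/- smoke and WT smoke (horizontal axis, same range as for smoke against air) for the 34 measured antioxidant genes, with the 95% interval of the limma fit over all arrays. No point is filled, and the points lie between -0.36 for Gsta3 and 0.19 for Gclm.

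Set against WT air, the Spp1-/- smoke arrays had 12 of 34 antioxidant genes called, 6 higher and 6 lower, beside 22.6% of all genes (12.2% higher and 10.5% lower). At an unadjusted p under 0.05 there were 19 of 34, beside 35.4% of all genes. The arrays did not overlap for 17 higher genes (35.2% of all) and 11 lower ones (26.1%), beside 61.4% in either direction. This comparison shares its air arrays with the one in wild type, and its values for the called genes stand beside those above. The 6 higher genes were Slc7a11, Blvrb, Prdx4, Gstm1, Sod2 and Txn1. The 6 lower ones were Gsta3, Gpx3, Gstm2, Gstt1, Sod1 and Gsta4, of which Gstm2 differed by -2.05 ± 0.15 (adjusted p = 0.00215), Gstt1 by -1.73 ± 0.19 (adjusted p = 0.00471) and Gsta4 by -0.81 ± 0.14 (adjusted p = 0.0152). Gstm1 differed by 0.90 ± 0.14 (adjusted p = 0.0131). With Spp1-/- smoke replicate 1 or replicate 2 left out, fewer genes were called, both among the 34 and over all genes. The calls of Blvrb, Prdx4, Gstm1, Sod2 and Txn1 were lost in both cases, and that of Gsta4 without replicate 2.

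Further genes of the same pathways came from lists outside the 34. On a list of 30 other NRF2-linked genes, 26 were tested, 7 rose and 1 fell in wild type smoke, beside 11.1% and 10.3% of all genes. Their median difference was 0.24, beside 0.04 over all genes. The 4 with the smallest p were Akr1b8, Aldh1a1, Mafg and Slc3a2. Akr1b8, an aldo-keto reductase, rose from 8.34 ± 0.10 (SD, n = 2) to 10.34 ± 0.14 (adjusted p = 0.0016). Mafg, which encodes a small MAF protein that binds DNA together with NRF2, rose from 11.27 ± 0.02 to 12.11 ± 0.10 (adjusted p = 0.00964). Slc3a2, the heavy chain that carries xCT to the membrane, rose from 10.02 ± 0.09 to 10.92 ± 0.03 (adjusted p = 0.0117). The gene that fell was Aldh1a1, a retinaldehyde dehydrogenase, from 12.83 ± 0.22 to 9.66 ± 0.43 (adjusted p = 0.00253).

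On a list of 42 other glutathione and redox genes, 36 were tested, 7 rose and 3 fell, beside the same shares of all genes, with a median of -0.06. Glrx, the glutaredoxin gene, rose from 12.50 ± 0.09 (SD, n = 2) to 13.87 ± 0.05 (adjusted p = 0.00242), and Gstm4, another mu class transferase, from 8.34 ± 0.02 to 9.44 ± 0.12 (adjusted p = 0.00381). Sesn1, a sestrin induced by p53, fell from 11.81 ± 0.05 to 10.70 ± 0.01 (adjusted p = 0.0027). Gpx8, a peroxidase of the endoplasmic reticulum, fell from 8.87 ± 0.01 to 7.51 ± 0.08 (adjusted p = 0.00498). Between the genotypes under smoke, 0 genes of either list were called.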

How the data were processed

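Gene expression was measured on 6 Illumina arrays in 3 groups of 2, assigned by their titles. The deposited values were log2 intensities of 45281 probes, normalized between arrays by the authors, as their sorted columns differ by at most 0.0056. The submitters' processing notes name limma. Background correction is not given in the sources used. A further table (6 signal and 6 detection columns) was left out, since no column name matches a sample's labels.

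Probes took the platform's gene symbols, brought up to date through Entrez identifiers and RefSeq (GRCm38.p6) (34807 of 34885 probes with 1 symbol, 18 with several, 10378 unnamed). Each gene kept its brightest probe, and genes in the brighter 50% of probes by mean over the arrays (above 7.274) were tested. Group differences were fitted with limma 3.58.1 in R 4.3.3 over all 6 arrays (3 residual and 2.24 prior degrees of freedom). Benjamini-Hochberg adjustment covered all 12382 genes, and an adjusted p under 0.05 was called. The fit was run on simulated data in which each gene had the same spread in every group and few genes differed. Unequal spread between groups was therefore not covered. An exact permutation of 2 against 2 arrays cannot go below 0.333 and was not used.

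The antioxidant genes and gene lists were chosen with earlier results of these data known. Array values are given for genes called in any of the 3 comparisons and for Nfe2l2 and Keap1. Those of a few uncalled genes (Nqo1, Srxn1, Me1, Prdx1, Gclm) were added after they were seen. From each other list, up to 4 genes with the smallest p in smoke against air were eligible for naming. Alternatives were other filters, the mean of a gene's probes, a trended robust prior, weights per array, a fit of just the groups compared, a replicate block, subtraction of the floor (offset 16), centring on the tested genes, a 2-fold threshold and each array left out. A fit of every probe by itself was added after seeing the data. It gave the values of all probes other than the brightest. Its standard errors are not like for like with those of the main fit. For the brightest Sod1 probe the standard error was 0.05, beside 0.09 in the main fit, and for Me1 0.41 beside 0.40.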

Additional observations from a re-analysis of the deposited data

How the results depend on the processing

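The counts of antioxidant genes called, 11 in wild type smoke against air and 12 in Spp1-/- smoke against WT air, became 7 and 7 with a 2-fold threshold. With single arrays left out they ran from 6 to 16 and from 6 to 15. The lone array of a group was then assumed to vary like the others. Under the other settings they stayed within 1.5 times. Over all genes, the 2645 calls in wild type became 1489 with only the 2 groups compared, 1295 at 2-fold, and from 743 to 3858 with single arrays left out. The 2804 calls in Spp1-/- smoke against WT air became 1842, 1327, and from 673 to 4035. The 0 calls between the genotypes became 8 with the stricter filter, 7 with the trended robust prior, 9 with array weights, 6 with only the 2 groups compared, and from 0 to 6 with single arrays left out. The 2 WT air arrays differed most from each other, with a median SD of 0.149 over the tested genes. It was 0.091 in WT smoke and 0.087 in Spp1-/- smoke. Over all probes, the arrays of a group correlated at 0.9773, 0.9917 and 0.9936 in the same order. The main fit pools these spreads. The cause of the shifts in the counts was not tested.

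No called difference of an antioxidant gene changed sign. In wild type smoke against air, 20 values lost a call and 19 gained one, and in Spp1-/- smoke against WT air 34 and 13. Slc7a11, Gpx3, Gsta3, Gstm2 and Gstt1 were called in wild type under every alternative run. Their adjusted p reached at most 0.036, 0.0397, 0.0241, 0.0274 and 0.0451. A replicate block gave 12, 0 and 12 antioxidant genes and 2248, 0 and 2367 of all genes in the 3 comparisons. Same-numbered arrays shared only a number: their deviations correlated at 0.137, -0.082 and -0.029. Normalizing the raw signals with neqc was not run, for want of column labels. Genes near the probe median, such as Nfe2l2, Nqo1, Gclc, Sod3 and Abcc1, have compressed differences.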

Other observations

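A few more redox genes are given here because of what they are known to do, chosen after their values had been seen. Ccs, the chaperone that loads copper into SOD1, stood at 10.35 ± 0.04 (SD, n = 2) in WT air and 10.90 ± 0.17 in WT smoke, a rise of 0.55 on the log2 scale (limma adjusted p = 0.0311), while Sod1 itself fell. Hmox1, the inducible heme oxygenase gene whose product biliverdin is reduced by biliverdin reductases, rose from 7.89 ± 0.01 to 8.88 ± 0.06 (adjusted p = 0.0175). Abcc4, a transporter of organic anions, rose from 8.87 ± 0.29 to 9.82 ± 0.19 (adjusted p = 0.0207). Mgst2, a microsomal transferase, rose from 11.51 ± 0.52 to 13.09 ± 0.03 (adjusted p = 0.0145), and its relatives Mgst1 and Mgst3 had positive differences that missed the threshold. The ferritin genes Ftl1 and Fth1, whose subunits store iron, did not pass (adjusted p = 0.0769 and 0.788).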
